A study of Rattus norvegicus with 9 samples.

Results

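The genes described are 59 sarcomere and muscle structure genes, chosen by gene symbol from 5760 genes listed in either of 2 deposited tables of rat heart RNA sequencing. The symbols taken were those of the myosin, tropomyosin, troponin, actinin and muscle actin families, of titin, nebulin and other giant sarcomere proteins, and of their Z-disc, filamin, dystrophin complex, calponin, transgelin, calpain, capping protein and SMYD partners. The symbol rule itself used no measured value, but only genes that the authors' own test had selected are listed. Of the 59 genes, 43 were among the 4288 genes in the table of Cal and Model, 26 were among the 2458 listed in the table with the Con group, and 10 were in both. Gene lists classed 30 as cardiac and striated, 9 as smooth muscle and 19 as broadly expressed cytoskeleton. A class does not exclude expression in other cells of the heart, which was not tested. The copy gene Tpm3-rs7 was left unclassed. The same symbol pattern fits 142 rat protein-coding genes in RefSeq, and those in neither table, such as Myh7, Actc1, Ttn, Tnnt2, Tagln and Cnn1, were not analysed here.

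The sarcomere is the contractile unit of striated muscle, in which thick filaments of myosin pull on thin filaments of actin that are anchored at the Z-disc. Z-disc proteins carry load and also sense stretch, and several of them shuttle between the sarcomere and the nucleus. Smooth muscle of the vessel wall contracts with its own actin and myosin isoforms, which are not organised into sarcomeres, and all cells use a further set of nonmuscle isoforms in their cytoskeleton.

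Hearts of 9 male Sprague Dawley rats were sequenced, 3 animals in each group. The Control group, headed Con in the table, underwent a sham operation and then received distilled water by mouth. In the Model and Cal groups the left anterior descending coronary artery was ligated to induce heart failure (HF), and after the operation the Model rats received distilled water and the Cal rats received calycosin (Cal), an isoflavone from Astragalus, at 80 mg/kg per day by mouth. Treatment lasted 28 days, and RNA was taken from heart tissue with no sorting of cells.

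The names of the columns contradict each other, and every direction below depends on them. In the table of Cal and Model, the authors' mean column named Cal held the average of the 3 Model-headed sample columns in 4288 of 4288 genes, and the mean column named Model was that of the Cal-headed ones. In the other table the mean column named Model held the average of the 3 Cal-headed sample columns in 2458 of 2458, and no sample column was headed Model. The Cal-headed libraries held identical reads in both tables in 986 of 986 shared genes. Below, a library carries the heading of its own sample column. Under the names of the mean columns, the Cal-headed libraries would instead be the model group, and the Model-headed ones would be the Cal group. Which of these names is right cannot be told from the tables.

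The value given for a gene and library is the normalized count, which is the read count divided by a size factor that the authors computed for each library, separately in each table. Reads on the listed genes ranged from 2860826 to 3998471 per library in the table of Cal and Model and from 3270460 to 4659882 in the table of Cal and Con. The whole depth of the libraries is unknown. Both tables list only genes that the authors' own test had selected, so nearly every listed gene differed between its 2 groups, and the tests below are not independent of that selection. Groups were compared with limma on log2(normalized count + 1), and fold changes on that scale understate the change of low genes. A gene was called where the adjusted p was under 0.05 and the log2 fold change was beyond 1. An exact permutation test of 3 libraries against 3 cannot give a two-sided p under 0.1.

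Promoter sequences were read for the members that RefSeq matched, 45 of 59 with 54 windows of 250 bases before a transcription start in the rat genome (GRCr8). Searches covered the CArG box, which is the site of serum response factor, the MCAT element CATTCC, which is the site of TEAD factors, and the MEF2 site. A MEF2 site was counted only in a strict form, which starts with CTA, ends with TAG and has 4 bases of A or T between. Looser forms that start with TTA or end with TAA were not counted. The second Fhl2 window below holds such a form, which is left unmarked. Both strands were searched, so that GGAATG also counts as an MCAT element. A CArG box lay in the windows of 4 members, Cnn2, Fhl1, Fhl2 and Ldb3, an MCAT element in 9 members and a MEF2 site in 3. Counted by window, these were 5, 9 and 3 of the 54. Of 33469 rat promoter windows of the same length, 1.5% held a CArG box, 12.1% an MCAT element and 0.523% a MEF2 site. The windows with a CArG box are shown because their genes include Fhl2 and Ldb3, which are among the cardiac members described below, and those of Mybpc3 and Myh6 are shown as thick filament genes with a MEF2 site and an MCAT element. Capitals mark the matched motif, and all sequences read 5′ to 3′ on the strand of the gene.
Fhl2 first window, chr9:52923327-52923576, minus strand, CArG box: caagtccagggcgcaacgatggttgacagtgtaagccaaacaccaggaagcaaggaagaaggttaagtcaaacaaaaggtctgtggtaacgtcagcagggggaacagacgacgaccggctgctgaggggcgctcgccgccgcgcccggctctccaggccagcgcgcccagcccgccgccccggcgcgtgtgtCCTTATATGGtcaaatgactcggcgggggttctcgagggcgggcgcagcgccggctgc
Fhl2 second window, chr9:52954541-52954790, minus strand, CArG box and MCAT element: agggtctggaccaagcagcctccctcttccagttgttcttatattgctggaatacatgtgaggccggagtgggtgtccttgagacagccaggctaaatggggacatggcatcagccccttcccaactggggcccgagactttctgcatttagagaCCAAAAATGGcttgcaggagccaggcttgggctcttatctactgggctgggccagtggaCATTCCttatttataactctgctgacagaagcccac
Ldb3, chr16:9924680-9924929, minus strand, CArG box: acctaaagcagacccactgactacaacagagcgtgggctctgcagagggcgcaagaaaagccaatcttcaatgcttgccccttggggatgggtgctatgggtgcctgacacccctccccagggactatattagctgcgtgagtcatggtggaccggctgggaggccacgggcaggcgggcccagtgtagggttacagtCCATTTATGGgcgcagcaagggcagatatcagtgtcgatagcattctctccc
Cnn2, chr7:10370313-10370562, minus strand, CArG box: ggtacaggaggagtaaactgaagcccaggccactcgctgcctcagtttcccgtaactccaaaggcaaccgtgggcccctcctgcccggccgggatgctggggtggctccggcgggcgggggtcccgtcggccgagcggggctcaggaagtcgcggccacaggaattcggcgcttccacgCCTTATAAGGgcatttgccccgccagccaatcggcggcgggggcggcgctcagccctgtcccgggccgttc
Fhl1, chrX:139638246-139638495, plus strand, CArG box: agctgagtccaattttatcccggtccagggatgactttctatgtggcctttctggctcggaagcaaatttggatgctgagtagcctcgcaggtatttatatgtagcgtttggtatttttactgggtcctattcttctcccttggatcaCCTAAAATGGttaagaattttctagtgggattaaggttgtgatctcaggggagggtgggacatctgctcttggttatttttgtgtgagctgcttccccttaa
Mybpc3, chr3:97550811-97551060, plus strand, MEF2 site: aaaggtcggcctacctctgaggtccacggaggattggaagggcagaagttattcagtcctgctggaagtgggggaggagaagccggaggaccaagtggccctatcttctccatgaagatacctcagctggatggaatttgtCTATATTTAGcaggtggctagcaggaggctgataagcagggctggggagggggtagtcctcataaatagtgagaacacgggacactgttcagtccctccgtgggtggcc
Myh6, chr15:32411698-32411947, minus strand, MCAT element: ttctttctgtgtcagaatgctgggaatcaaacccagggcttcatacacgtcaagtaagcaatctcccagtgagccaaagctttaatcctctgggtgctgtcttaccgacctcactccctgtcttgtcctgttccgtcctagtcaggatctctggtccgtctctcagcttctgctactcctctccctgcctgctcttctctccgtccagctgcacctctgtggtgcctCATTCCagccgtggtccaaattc
These matches describe letters in the window and were not tested as binding sites.

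The first comparison asked how the structural genes differed between the hearts of Cal-treated and untreated HF rats. All 43 listed members passed an adjusted p under 0.05, with 26 higher and 17 lower in the Cal-headed libraries than in the Model-headed ones, beside 99.6% of all listed genes (46.0% higher and 53.7% lower), although quantile normalization turned 5 of the lower ones. By the names of the mean columns these directions are exchanged. Past the fold limit, 14 members were called higher and 9 lower, which is 53.5% of the 43, beside 60.1% of all listed genes (28.4% higher and 31.6% lower). Groups did not overlap in 42 of 43 members, beside 98.2% of all listed genes, and the exception was Csrp1. The median log2 fold change was 0.64 over the members and -0.52 over all listed genes. In bulk tissue, fewer cells of a type and less RNA per cell cannot be told apart.

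**Figure D1:**
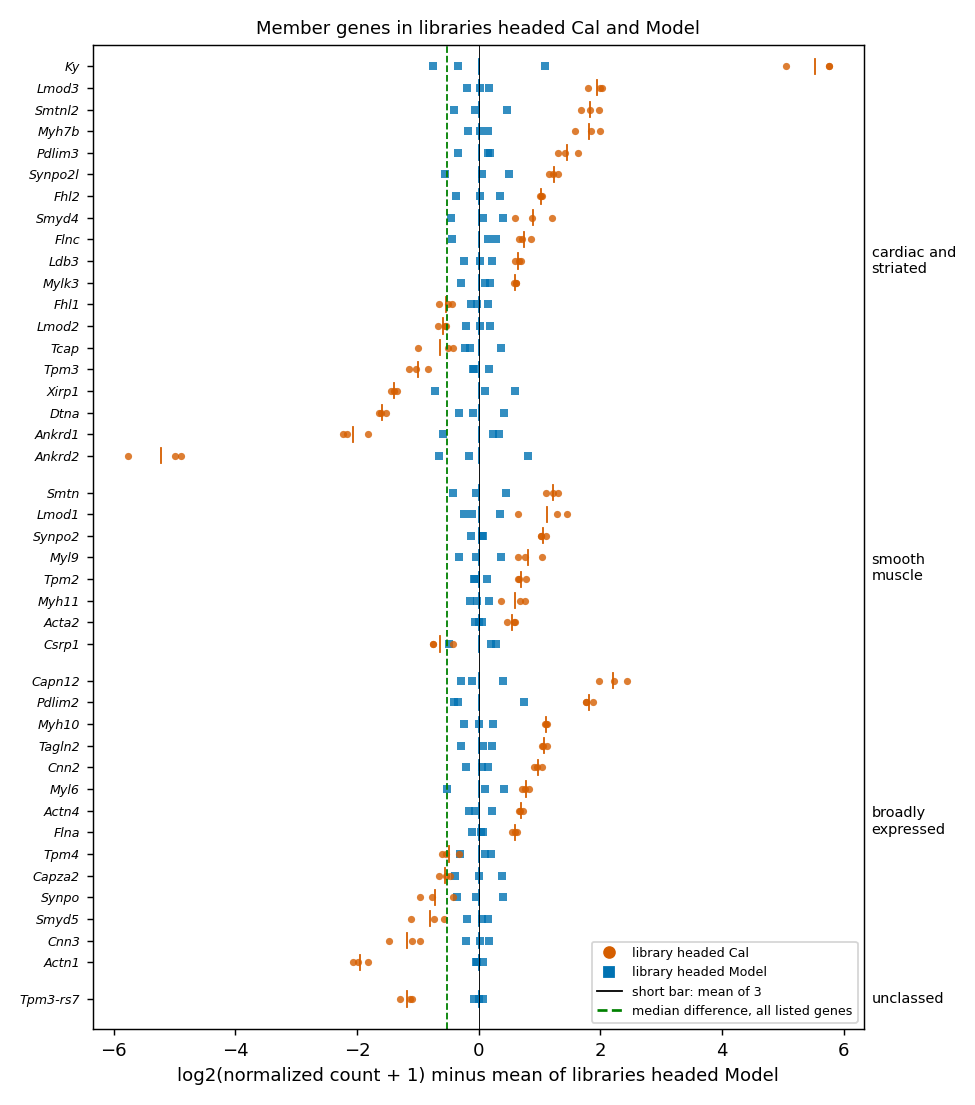
Each row is one of 42 of the 43 members listed for Cal and Model, grouped by class, and the horizontal axis is log2(normalized count + 1) minus the mean of the Model-headed libraries, with circles for the 3 Cal-headed libraries and squares for the 3 headed Model. Ky at 5.52 and Ankrd2 at -5.22 stand far from the other members, and the dashed line is the median difference of all listed genes at -0.52.

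The Z-disc group held the members with the highest and the lowest fold changes. Ky, which encodes a muscle peptidase of the Z-disc, measured 482, 298 and 484 normalized counts in libraries Cal 1 to 3 and 4.32, 6.10 and 18.2 in libraries Model 1 to 3, an order kept for all values below. Every Cal-headed library was far above every Model-headed library (log2 fold change 5.52 ± 0.49 SE, adjusted p = 0.000201). Ankrd2, a stretch-responsive ankyrin repeat protein best known from slow skeletal muscle, measured 5.53, 2.82 and 5.98 in the Cal-headed libraries and 185, 132 and 365 in the Model-headed ones. It was nearly undetected in the first group, with 6, 3 and 7 reads, giving a log2 fold change of -5.22 (SE 0.44, adjusted p = 0.000178). Its relative Ankrd1, which encodes the cardiac ankyrin repeat protein of the stress response, measured 7465, 7866 and 9964 against 41578, 44368 and 23501. The lowest Model-headed library still lay above the highest headed Cal, and the mean was 4.33 times as high (log2 fold change -2.07 ± 0.27 SE, adjusted p = 0.000688).

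Other genes of the Z-disc and its borders differed less, and in both directions. Fhl2, a LIM-only protein that binds titin and whose promoter windows are printed above, measured 25645, 26193 and 26146 in the Cal-headed libraries and 9899.5, 12969 and 16294 in the Model-headed ones. The groups were apart, but the log2 fold change of 1.02 (SE 0.21, adjusted p = 0.00336) sat at the fold limit and was 0.84 without library Model 1 and 0.99 with edgeR or DESeq2. Pdlim3, a PDZ and LIM partner of alpha-actinin, measured 268, 215 and 233 against 96.1, 68.3 and 97.8 (log2 fold change 1.45 ± 0.21 SE, adjusted p = 0.000935). Synpo2l, a cytoskeletal heart-enriched Z-disc protein, measured 1736, 1560.0 and 1639 against 986, 478 and 728. Both genes were higher in every Cal-headed library, and the log2 fold change of Synpo2l was 1.23 (SE 0.25, adjusted p = 0.00324), or 0.95 without library Model 2. Xirp1, an actin-binding repeat protein of the intercalated disc, went the other way with 2891, 2987 and 2784 against 4618, 8163 and 11460.3. Its Model-headed libraries spread widely while the Cal-headed ones were nearly equal (log2 fold change -1.39 ± 0.31 SE, adjusted p = 0.00434), and quantile normalization ended the call at -0.72 (adjusted p = 0.0388). The locus overlaps that of Cx3cr1 on the same strand, and whether reads were shared was not tested.

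The remaining Z-disc members passed the p threshold without reaching the fold limit. Flnc, the muscle filamin, measured 4941, 5443 and 4775 against 3348, 2221 and 3655 (log2 fold change 0.75 ± 0.20 SE, adjusted p = 0.00964). Ldb3, a PDZ and LIM protein that binds alpha-actinin at the Z-disc, measured 13331, 14258 and 13948 against 9009.7, 7462 and 10316 (log2 fold change 0.64 ± 0.17 SE, adjusted p = 0.00816). Both were higher in all 3 Cal-headed libraries, and Smyd4, a methyltransferase placed in this list, had a log2 fold change of 0.90. Tcap, the titin cap protein telethonin, measured 15702, 11209 and 16781 against 20352, 19058 and 28849. The groups did not overlap (log2 fold change -0.64 ± 0.24 SE, adjusted p = 0.030), but the adjusted p was 0.0763 without library Model 3, 0.0602 without Cal 1 and 0.125 without Cal 2, and quantile normalization turned the sign to 0.32 (adjusted p = 0.345).

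Of 5 filament genes of the cardiac and striated class, 3 were higher and 2 lower in the Cal-headed libraries. Lmod3, a leiomodin that starts and lengthens thin filaments, measured 1344, 1152 and 1318 in the Cal-headed libraries and 288, 334 and 373 in the Model-headed ones. The separation was wide (log2 fold change 1.94 ± 0.15 SE, adjusted p = 0.000155), while its cardiac relative Lmod2 was lower, with a log2 fold change of -0.59 that turned positive under quantile normalization. Myh7b, a slow-type myosin heavy chain, measured 591, 532 and 445 against 149, 130.5 and 165, and the mean was 3.53 times as high in the Cal-headed libraries (log2 fold change 1.81 ± 0.18 SE, adjusted p = 0.00026). Mylk3, the cardiac myosin light chain kinase, measured 8187, 8224 and 8045 against 4389.8, 5784 and 6077 and was higher throughout (log2 fold change 0.60 ± 0.16 SE, adjusted p = 0.00947). Tpm3, a tropomyosin of slow skeletal fibres that many cells also express, measured 1847, 2008 and 2302 against 3857, 4585 and 3882. It was lower in every Cal-headed library and sat at the fold limit (log2 fold change -1.002 ± 0.15 SE, adjusted p = 0.00096), with -0.92 without library Model 2, -0.93 without Cal 1 and -0.99 without Cal 2. Median-ratio scaling gave -0.70 and quantile normalization -0.43, so the call was lost under both. The copy gene Tpm3-rs7 held 9.20% to 11.4% of the summed values of both genes in every library, so its reads and those of Tpm3 may have been split by the counting, and its log2 fold change was -1.17.

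The last cardiac and striated members were scaffold genes. Dtna, the alpha-dystrobrevin of the dystrophin complex, measured 900.3, 973 and 923 in the Cal-headed libraries and 2644, 3744 and 2239 in the Model-headed ones. Its mean was 3.08 times as high in the Model-headed libraries (log2 fold change -1.59 ± 0.20 SE, adjusted p = 0.000554). Smtnl2, a smoothelin-like protein of striated muscle, measured 233, 208 and 258 against 48.6, 62.2 and 89.1 and was higher in every Cal-headed library (log2 fold change 1.83 ± 0.25 SE, adjusted p = 0.000799). Fhl1, the skeletal LIM-only relative of Fhl2, was lower with a log2 fold change of -0.54, which quantile normalization turned positive. In all, 11 of the 19 cardiac and striated members were higher and 8 were lower, with Fhl1, Lmod2 and Tcap turned under quantile normalization, and 7 and 5 of them passed the fold limit, which is 63.2% of the 19 beside 60.1% of all listed genes. The summed normalized count of the 19 was 92991 to 99091 in the Cal-headed libraries and 113936 to 125538 in the Model-headed ones. A few high genes weigh most in these sums, so they do not describe the class as a whole. Among them are Ankrd1 (means of 8431.5 and 36482) and, in the other direction, Fhl2 (25995 and 13054).

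Of 8 smooth muscle members, 7 were higher in the Cal-headed libraries, and with the authors' size factors the contractile isoforms differed by less than 1 on the log2 scale. Quantile normalization raised Acta2, Myl9 and Myh11 past the fold limit, at 1.07, 1.03 and 1.01, and median-ratio scaling raised Myl9 to 1.11. Acta2, the smooth muscle alpha-actin, measured 2102, 2309.9 and 2278 in the Cal-headed libraries and 1457, 1528 and 1578 in the Model-headed ones (log2 fold change 0.55 ± 0.12 SE, adjusted p = 0.00408). Myh11, the smooth muscle myosin heavy chain, measured 1099, 884 and 1162 against 622, 778 and 676 (log2 fold change 0.60 ± 0.16 SE, adjusted p = 0.00902). In both genes every Cal-headed library exceeded every Model-headed library, and the regulatory light chain gene Myl9 and the beta-tropomyosin gene Tpm2 followed with log2 fold changes of 0.82 and 0.69.

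The 3 smooth muscle members called, 37.5% of 8 beside 60.1% of all listed genes, were the actin-binding genes Smtn, Synpo2 and Lmod1. Smtn, which encodes smoothelin of contractile smooth muscle, measured 1706, 1572 and 1807 in the Cal-headed libraries and 545, 709.8 and 999 in the Model-headed ones (log2 fold change 1.22 ± 0.22 SE, adjusted p = 0.00213). Synpo2, or myopodin, measured 2301, 2157 and 2176 against 982, 1102 and 1120.4 (log2 fold change 1.05 ± 0.12 SE, adjusted p = 0.000441), and without library Model 1 the fold change was 0.99. Lmod1, the smooth muscle leiomodin, measured 89.5, 57.3 and 101 against 46.4, 30.5 and 33.5. These genes were called with non-overlapping groups, and Lmod1 (log2 fold change 1.13 ± 0.30 SE, adjusted p = 0.00862) had a value of 0.96 without library Cal 3 and 0.90 under quantile normalization. Csrp1, a LIM protein that smooth muscle shares with many cells, was the 1 member with a lower value and with overlapping groups, at 1520.2, 1531 and 1909.6 against 1835, 2935 and 3136 (log2 fold change -0.64 ± 0.23 SE, adjusted p = 0.0238). Its adjusted p was 0.0749, 0.0777, 0.0761 and 0.0702 without libraries Model 2, Model 3, Cal 1 and Cal 2.

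Markers of mural cells that no member rule covers were higher in the same libraries. All 4 listed of 8 mural markers, Abcc9, Notch3, Mcam and Ndufa4l2, were higher in the Cal-headed libraries, and their summed level was 7393 to 8207 against 4411 to 4613. Endothelial markers were higher in 5 of 5 listed genes (9135 to 11051 against 3760 to 5110 summed). Neutrophil markers were lower in 4 of 4, at 71.0 to 228 against 811 to 996. Of 14 cardiomyocyte markers outside the rule 2 were listed, and Kcnj3 was higher while Nppa was lower. Fibroblast markers were higher in 2 and lower in 1 of 3 listed genes (12086 to 15382 against 13412 to 19335 summed with the authors' size factors). Under quantile normalization all 3 were higher. Macrophage markers were higher in 3 and lower in 1 of 4 (2288 to 2770 against 1173 to 1539). No listed marker was at 0 in a group. The part of these cell types in the member values was not tested.

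Broadly expressed cytoskeletal genes split evenly between directions, with 8 of 15 higher and 7 lower in the Cal-headed libraries, or 10 and 5 under quantile normalization. Actn1, a nonmuscle alpha-actinin, measured 523, 625 and 559 in the Cal-headed libraries and 2143, 2313 and 2155 in the Model-headed ones. The values of each group were tight and far apart (log2 fold change -1.95 ± 0.13 SE, adjusted p = 9.96e-05). Cnn3, the acidic calponin, measured 1133, 1607 and 1471 against 2728, 3537 and 3200.3 (log2 fold change -1.18 ± 0.18 SE, adjusted p = 0.00106), and was no longer called under median-ratio scaling (-0.88) or quantile normalization (-0.62). In contrast to these, the nonmuscle actinin Actn4 and the nonmuscle filamin Flna were higher, with log2 fold changes of 0.69 and 0.59, as was the calponin Cnn2 at 0.97.

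The members of this class with the highest fold changes were Capn12, Pdlim2 and Myh10. Capn12, a calpain protease, rested on 11, 9 and 14 reads in the Cal-headed libraries and 2, 1 and 1 in the Model-headed ones, and it overlaps Actn4 on the opposite strand. The ratio of its normalized reads was 7.14, with an exact 95% counting interval of 2.55 to 27.7 that covers counting error only. Pdlim2, a PDZ and LIM adaptor, measured 83.0, 77.0 and 76.9 against 16.2, 17.1 and 37.4 (log2 fold change 1.81 ± 0.35 SE, adjusted p = 0.00262). Myh10, the nonmuscle myosin heavy chain IIB, measured 779, 769.7 and 761 against 423, 302 and 360.4 and was higher in all Cal-headed libraries (log2 fold change 1.10 ± 0.16 SE, adjusted p = 0.000909), with 0.98 without library Model 2. The remaining members of the class ranged from -0.81 for the methyltransferase gene Smyd5 to 1.07 for transgelin 2.

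Muscle genes outside the symbol rule, from a list of 59 genes for the intercalated disc, other sarcomere proteins and muscle transcription factors, were listed in 20 cases. Of these 18 were higher and 2 lower in the Cal-headed libraries, and 9 and 2 were called, which is 55% of the 20 beside 60.1% of all listed genes. Ilk, the integrin-linked kinase of the costamere, had the largest log2 fold change at 2.29 (SE 0.49, adjusted p = 0.00394), although its normalized counts were low, at 28.3 ± 2.92 (SD, n = 3) against 5.86 ± 4.28. Lims2, an Ilk partner, measured 639 ± 163 against 179 ± 77.7 and the cardiac transcription factor gene Nkx2-5 962 ± 45.4 against 345 ± 113. The serum response factor gene Srf and its cofactor gene Myocd had log2 fold changes of 1.21 and 1.22, and both are named after their values were seen. Lower values were found for Fbxo32, the muscle ubiquitin ligase atrogin-1 (log2 fold change -1.51 ± 0.23 SE, adjusted p = 0.00119), and for the transcription factor gene Hand2 (log2 fold change -1.23 ± 0.21 SE, adjusted p = 0.00160).

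The second table was deposited for the comparison of HF with sham hearts, but its sample columns are headed Cal and Con. All 26 listed members passed an adjusted p under 0.05, with 23 higher and 3 lower in the Cal-headed libraries than in the Con-headed ones, beside 99.8% of all listed genes (60.6% higher and 39.2% lower). By the name of the mean column the Cal-headed libraries are here the model group. Only Mybphl passed the fold limit, which is 3.85% of the 26 members beside 29.0% of all listed genes (18.0% higher and 10.9% lower). Groups did not overlap in 24 of 26 members, beside 97.4% of all listed genes. The median log2 fold change was 0.45 over the members and 0.37 over all listed genes, and 14 of the 26 members lay above the latter. With the authors' size factors the direction was higher for 23 members, whereas quantile normalization gave 14 higher and 11 lower and median-ratio scaling gave 20 higher and 6 lower.

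**Figure D2:**
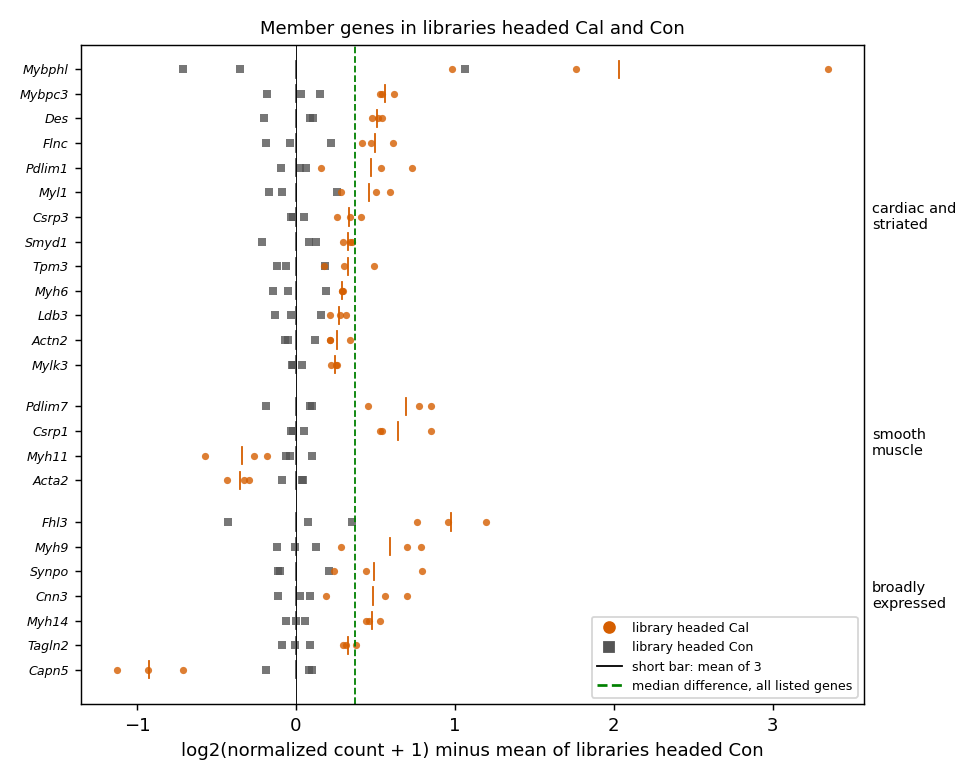
Each row is one of 24 of the 26 members listed for Cal and Con, grouped by class, and the horizontal axis is log2(normalized count + 1) minus the mean of the Con-headed libraries, with circles for the 3 Cal-headed libraries and squares for the 3 headed Con. The cardiac and striated rows all lie to the right of 0 with the authors' size factors, and quantile normalization turned 7 of the 15 members of this class to the left. The dashed line is the median of all listed genes at 0.37. Acta2, Myh11 and Capn5 lie to the left.

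All 15 cardiac and striated members were higher in the Cal-headed libraries with the authors' size factors, by small amounts. Their median log2 fold change of 0.34 was below the 0.37 of all listed genes, and 7 turned negative under quantile normalization and 3 (Actn2, Ldb3 and Mylk3) under median-ratio scaling. Myh6, the fast alpha-myosin heavy chain that predominates in the adult rodent ventricle, measured 335407, 334004 and 336025 normalized counts in the Cal-headed libraries and 312804, 247859 and 264424 in the Con-headed ones. The groups were apart (log2 fold change 0.29 ± 0.084 SE, adjusted p = 0.0103), but the fold change was 0 under quantile normalization, where Myh6 ranked first in every library, and 0.916 was its adjusted p under median-ratio scaling. Mybpc3, the cardiac myosin-binding protein C, had the second highest fold change of the class (log2 fold change 0.56 ± 0.087 SE, adjusted p = 0.00094), with 51259, 51747 and 54539.8 against 39405, 31258 and 36393. Smyd1, the muscle methyltransferase that binds myosin, had a log2 fold change of 0.33. Mylk3 measured 9157, 9221 and 8969.5 against 7608, 7578 and 7910.3 (log2 fold change 0.24 ± 0.059 SE, adjusted p = 0.00561), and its sign turned to -0.19 under quantile normalization and -0.040 under median-ratio scaling.

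Mybphl, a relative of the myosin-binding proteins known from atrial muscle and the conduction system, was the 1 called member, and it is named after its values were seen. It measured 15.5, 48.4 and 8.57 in the Cal-headed libraries and 2.80, 1.96 and 9.11 in the Con-headed ones, from 15, 46 and 9 against 3, 2 and 9 reads. Library Con 3 exceeded library Cal 3, so the groups overlapped (log2 fold change 2.03 ± 0.71 SE, adjusted p = 0.0206). The adjusted p was 0.0692 without library Cal 2, where the fold change was 1.37, 0.0631 without Con 1 and 0.0675 without Con 2. Quantile normalization (1.33, adjusted p = 0.182) and median-ratio scaling (1.79, adjusted p = 0.0503) also ended the call.

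All 6 Z-disc genes were higher in the Cal-headed libraries with the authors' size factors, and quantile normalization turned Csrp3, Ldb3 and Actn2. Des, the muscle intermediate filament desmin, measured 28676, 29897 and 29476 in the Cal-headed libraries and 21913, 17909 and 22195 in the Con-headed ones (log2 fold change 0.51 ± 0.088 SE, adjusted p = 0.00151). Csrp3, the muscle LIM protein, measured 17882, 16927 and 18802 against 13969.6, 13836 and 14640.4 (log2 fold change 0.34 ± 0.064 SE, adjusted p = 0.00230). Both genes were higher in every Cal-headed library, while quantile normalization gave Csrp3 a value of -0.083. Flnc measured 5527, 6103 and 5324 against 4658, 3498 and 3892 (log2 fold change 0.50 ± 0.11 SE, adjusted p = 0.00405) and Ldb3 14909.5, 15986 and 15551 against 14347, 11728 and 12570.4 (log2 fold change 0.27 ± 0.083 SE, adjusted p = 0.0128). Tpm3 overlapped between groups at 2065, 2251 and 2566 against 1743, 2074 and 1677 (log2 fold change 0.33 ± 0.11 SE, adjusted p = 0.0212), and the adjusted p was 0.0802, 0.0623 and 0.0844 without libraries Cal 3, Con 1 and Con 3. Actn2, the sarcomeric alpha-actinin, Pdlim1 and the essential light chain gene Myl1 had log2 fold changes of 0.26, 0.47 and 0.46.

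Among 4 smooth muscle members, the contractile isoforms were lower in the Cal-headed libraries than in the Con-headed ones, under all 3 scalings. Acta2 measured 2351, 2590.0 and 2539 against 3267, 3001 and 3283 (log2 fold change -0.35 ± 0.077 SE, adjusted p = 0.00383). Myh11 measured 1229, 991 and 1296 against 1577, 1408 and 1437 (log2 fold change -0.34 ± 0.12 SE, adjusted p = 0.0192), and its adjusted p was 0.0583 without library Cal 2 and 0.0636 without Con 1. Every Con-headed library was above every Cal-headed library in both genes, whereas the LIM protein genes Csrp1 and Pdlim7 were higher in the Cal-headed libraries. Csrp1 measured 1700.2, 1716 and 2129 against 1162, 1223 and 1153 (log2 fold change 0.64 ± 0.10 SE, adjusted p = 0.00122), and Pdlim7 had a log2 fold change of 0.69.

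Broadly expressed members were higher in 6 of 7 cases with the authors' size factors, from 0.33 for Tagln2, which quantile normalization turned negative, to 0.97 for the LIM-only gene Fhl3. The nonmuscle myosin genes Myh9 and Myh14 had log2 fold changes of 0.59 and 0.48, and Cnn3 measured 1267, 1802 and 1641 against 1130.3, 1179 and 1027 (log2 fold change 0.48 ± 0.14 SE, adjusted p = 0.00913). The calpain gene Capn5 was lower, at 50.1 ± 7.33 against 95.7 ± 10.6 (SD, n = 3, log2 fold change -0.92). Cell markers moved as well. With the authors' size factors, all 7 listed of 14 cardiomyocyte markers outside the rule were higher in the Cal-headed libraries (396096 to 413469 against 305161 to 346483 summed). Of these 7 markers, 5 turned lower under quantile normalization and 2 under median-ratio scaling. Mural markers were lower in 3 of 3 (10555 to 12285 against 14779 to 18712), fibroblast markers in 4 of 4 (9549.6 to 12371 against 14389 to 16008) and endothelial markers in 5 of 5 (12146 to 14064 against 19512 to 22159). Neutrophil markers were higher in 2 of 2 (48.5 to 183 against 13.0 to 28.5), as was the 1 macrophage marker listed, Cd14 (1250.4 to 2047 against 124.5 to 177). No listed marker was at 0 in a group, and the part of these cells in the member values was not tested.

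Of the list of muscle genes outside the rule, 19 were in this table, 17 of them higher and 2 lower in the Cal-headed libraries, or 11 and 8 under quantile normalization. Only Ilk was called, which is 5.26% of the 19 beside 29.0% of all listed genes. Ilk measured 31.6 ± 3.27 against 8.05 ± 5.87 normalized counts (SD, n = 3, log2 fold change 2.12, adjusted p = 0.00761). The 2 lower genes, named after their values were seen, were Lims2 at -0.81 and the intermediate filament gene Synm at -0.61.

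The 10 members in both tables are 10 of the 43 and 10 of the 26, and their 2 fold changes share the Cal-headed libraries, so they are set side by side without a test. Tagln2, Flnc, Ldb3 and Mylk3 were higher in the Cal-headed libraries than in either other group. Myh11 and Acta2 were higher than in the Model-headed libraries and lower than in the Con-headed ones. Csrp1, Synpo, Tpm3 and Cnn3 were lower than in the Model-headed libraries and higher than in the Con-headed ones. The group headed Cal thus lay between the others for 6 of the 10 with the authors' size factors. Under either other scaling it did so for 8 of the 10. How many of all 986 genes in both tables lay between was not counted. Quantile normalization turned the Con comparison for Ldb3, Mylk3, Tagln2 and Tpm3, so that Tpm3 no longer lay between the other groups there. Median-ratio scaling turned it for Ldb3 and Mylk3. For Synpo, an actin-associated protein, the normalized counts were 1505, 2198 and 1735 against 2292, 2856 and 3883 for Model and 1684, 2465 and 1934 against 1646, 1329 and 1317 for Con, each in the scale of its own table.

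**Figure D3:**
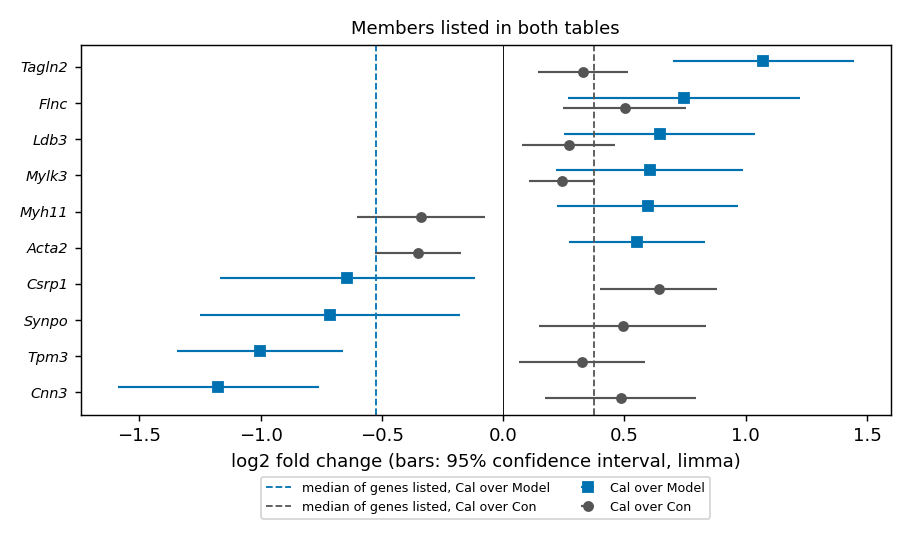
The log2 fold change of the 10 members listed in both tables is drawn with its 95% confidence interval from limma, with squares for Cal over Model and circles for Cal over Con, and dashed lines mark the medians of all listed genes at -0.52 and 0.37. Acta2 and Myh11 have squares to the right and circles to the left of 0, and Csrp1, Synpo, Tpm3 and Cnn3 the reverse, with the authors' size factors, while quantile normalization turned the circles of Ldb3, Mylk3, Tagln2 and Tpm3.

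The choice of scaling moved most members in the direction of all listed genes. Quantile normalization shifted the median log2 fold change of all listed genes by 0.42 in the Cal and Model table and by -0.42 in the Cal and Con table, and median-ratio scaling on the listed genes by 0.30 and -0.28. Median-ratio scaling moved all 43 members of the first table up and all 26 of the second down by nearly the same amount. Quantile normalization moved 38 of the 43 up and 5 down, from -0.22 for Lmod1 to 1.32 for Fhl2, and all 26 of the second table down. In the first table it added 10 calls (Acta2, Actn4, Cnn2, Flna, Flnc, Ldb3, Myh11, Myl6, Myl9 and Mylk3) and ended 4 (Cnn3, Lmod1, Tpm3 and Xirp1), while median-ratio scaling added 5 (Cnn2, Flnc, Myl6, Myl9 and Smyd4) and ended 3 (Cnn3, Tpm3 and Tpm3-rs7). Relative to the median of the main scaling, 27 of 43 members lay above it in the first table and 14 of 26 in the second. Under quantile normalization 31 members were higher and 12 lower in the first table, with Capza2, Fhl1, Lmod2, Tcap and Tpm4 turned, and median-ratio scaling turned none of the 43. Of the 26 members of the second table, 8 turned under quantile normalization, and 18 were no longer past the p threshold. For neither table was the share of all listed genes that turned or lost the p threshold counted. Among all listed genes the calls were 1219 higher and 1356 lower in the first table with the authors' size factors, 1393 and 1175 with quantile normalization and 1646 and 1047 with median-ratio scaling. The same counts in the second table were 443 and 269, 348 and 387, and 342 and 447.

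**Figure D4:**
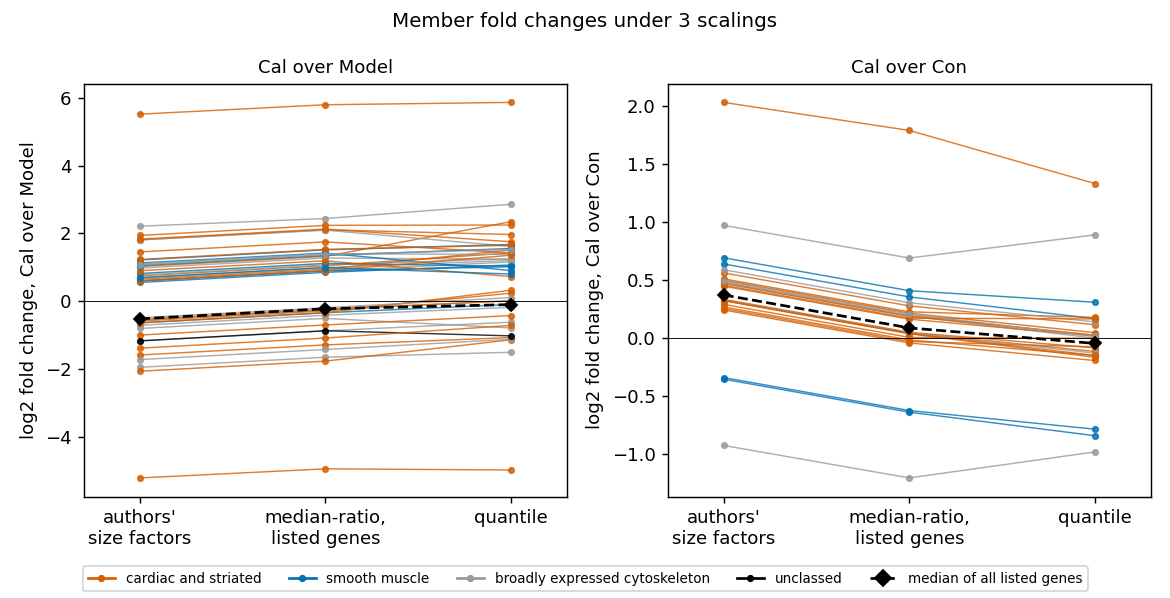
Each line is a member, coloured by class, and the vertical axis is its log2 fold change with the authors' size factors, median-ratio scaling on the listed genes and quantile normalization, at left for Cal over Model and at right for Cal over Con. The dashed line is the median of all listed genes, which moved by 0.30 and 0.42 at left and by -0.28 and -0.42 at right, and the lines of most cardiac and striated members at right came close to or crossed 0.

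Levels between genes were compared per length, as mean normalized count per kilobase of the deposited gene length. These lengths are given for mouse Ensembl genes, and whether they match the rat transcripts was not tested. Myh6 was the highest member, at 49828 in the Cal-headed libraries and 40890.4 in the Con-headed ones, followed by Mybpc3 at 12615 and 8572. In the table of Cal and Model, where Myh6 is not listed, the order of the leading genes differed between groups. Tcap was first in both, at 15363 in the Cal-headed libraries and 24001 in the Model-headed ones, but Fhl2 came second in the Cal-headed libraries (13703 against 4777 for Ankrd1) and Ankrd1 in the Model-headed ones (20669.9 against 6882 for Fhl2). Among smooth muscle members Acta2 was the highest in the Cal-headed libraries, at 1252 against 845 for Csrp1, and Csrp1 in the Model-headed ones, at 1347 against 854 for Acta2. Lmod1 was the lowest at 20.9 and 9.33. These levels place cardiac muscle transcripts at the top of the list, as the tissue label states.

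**Figure D5:**
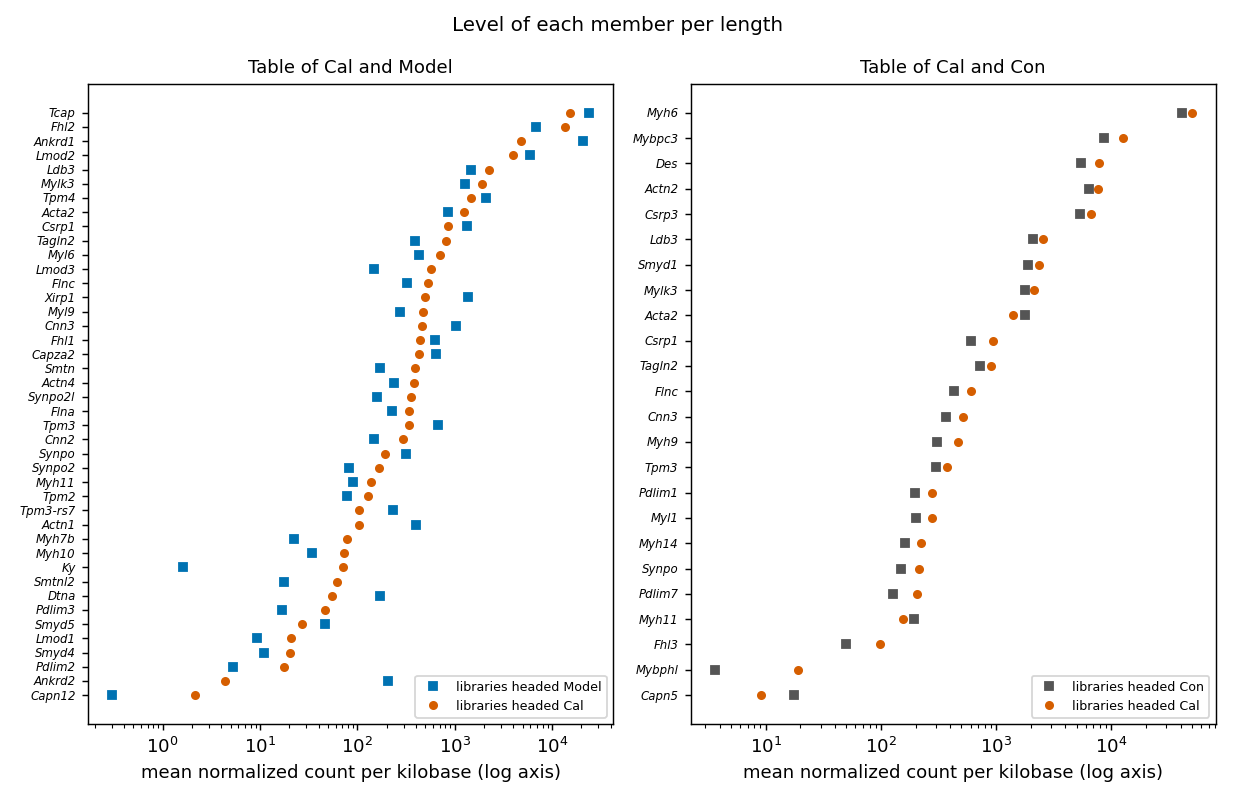
The mean normalized count per kilobase is drawn on a log axis for 42 members at left and 24 at right, with circles for the Cal-headed libraries and squares for the Model-headed ones at left or Con at right, in the scale of each table. At left Ky (71.7 against 1.62) and Ankrd2 (4.34 against 207) show the widest gaps, and at right Myh6 is the highest gene.

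Replicate libraries of the members were less variable in the Cal-headed libraries. Over 35 members with a mean of at least 100 normalized counts in the table of Cal and Model, the median coefficient of variation was 6.88% in the Cal-headed libraries and 16.6% in the Model-headed ones. Over 23 such members in the table of Cal and Con it was 5.25% and 7.51%. The spread was not particular to the members. Over the listed genes, chi-square over degrees of freedom was 15.5 to 26.5 between Cal-headed replicates and 51.6 to 80.7 between Model-headed ones. In the table of Cal and Con it was 19.6 to 23.7 and 10.9 to 23.9, so the Cal-headed replicates were not the closer ones there. These differences in spread were not tested.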

How the data were processed

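Cardiac RNA of 9 rats, 3 for each of 3 groups, was sequenced, and 2 tables of gene values were analysed. According to the paper's Methods, reads were aligned to rat reference sequences, counted per gene and tested with DESeq2. The gene identifiers in the tables are those of mouse Ensembl genes, and the build is not named. The submitters' processing notes list Bowtie 0.12.2, mm8 and mm9 without saying what each was used for. The deposited signal in the sample columns is a read count divided by the authors' size factor for the library (0.820 to 1.17 in the Cal and Model table, 0.950 to 1.07 in the other). Whole reads were recovered for 100% of values within 0.01. Beside these values the tables hold the log2 fold change and p-value columns of the authors and their mean of each group. Of these only the means were read, to check the headings, and the deposited gene length was used for levels per kilobase. The Cal-headed libraries are on a scale 1.12, 1.12 and 1.11 times higher in the Cal and Con table than in the other.

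Groups were taken from the headings of the sample columns. The comparison planned between Model and Control could be made only between the columns headed Cal and Con. The tests were made with limma 3.58.1 in R 4.3.3 (trended prior variance, two-sided, Benjamini-Hochberg adjustment over all listed genes of a table) on log2(normalized count + 1). The test script was tested on simulated data with known answers. No library was a duplicate of another in its group, since squared differences between replicates were 10.9 to 80.7 times those of counting noise (chi-square over degrees of freedom). Libraries of different groups were not compared in this way. Alternatives tried were 2 other scalings (quantile normalization and median ratios on the listed genes), other thresholds (adjusted p under 0.01, or no limit on the fold), another pseudocount (0.1 or 10), a minimum mean of 10, count models on the recovered reads (edgeR 4.0.16, DESeq2 1.42.0), a replicate block and leaving out each library. Over both deposited tables, 2 columns were not identified as sample values, authors' statistics or gene annotation, and they were not used.

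The members, the class lists and the marker lists were chosen with earlier results of these data known. Named with values for each library are the cardiac, striated and smooth muscle members that were in both tables or were called without overlap, a set of well-known sarcomere genes, and the 3 highest and 3 lowest called members of the broad class. Of the members, 3 are not reported one by one here and enter the counts, medians and sums only. Of the muscle genes outside the rule, up to 3 called genes in each direction are named by rule, and Srf, Myocd, Synm and, for Con, Lims2 were added after their values were seen. Promoter windows came from RefSeq (GRCr8), whose coordinates were not compared with those in the tables.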

Additional observations from a re-analysis of the deposited data

How the results depend on the processing

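EdgeR, DESeq2, a minimum mean of 10 and pseudocounts of 0.1 or 10 kept the counts of called members within 1.5 times in both tables, and each kept the direction and side of the p threshold of the 28 and 12 named members where it gave a value. Without a fold change limit the calls for Cal and Model were 4272 of all listed genes, 43 members, 19 cardiac and striated, 8 smooth muscle, 26 higher and 17 lower, and for Cal and Con they were 2454 listed genes, 26 members, 15 cardiac and striated, 4 smooth muscle, 23 higher and 3 lower. Quantile normalization gave 5 called smooth muscle members and 23 called higher members for Cal and Model, and 0 members, 0 cardiac and striated and 0 higher for Cal and Con. An adjusted p under 0.01 also gave 0, 0 and 0 there, and median-ratio scaling gave 0 cardiac and striated, 0 higher and 1 lower member, Capn5. At an unadjusted p under 0.05 with no limit on the fold, limma counted 26 of these 26 members with the authors' size factors, 11 with median-ratio scaling and 8 with quantile normalization. The same counts over all listed genes were not made. EdgeR and DESeq2 each called 1 member past both thresholds. Directions turned under quantile normalization for Tcap between Cal and Model (0.32) and between Cal and Con for Csrp3 (-0.083), Mylk3 (-0.19), Ldb3 (-0.15) and Tpm3 (-0.15), and under median-ratio scaling for Mylk3 (-0.040) and Ldb3 (-0.014). The cause was not tested. Leaving out each library in turn gave, in the Cal and Model table, 2344 to 2704 called genes, 19 to 24 members, 10 to 13 cardiac and striated, 2 to 3 smooth muscle, 11 to 15 higher and 8 to 9 lower. The same ranges in the Cal and Con table were 679 to 775, 0 to 3, 0 to 1, 0 to 0, 0 to 2 and 0 to 1, with 3 members without library Cal 1, 0 without Cal 2 and 2 without Con 3. Deviations of animals with the same replicate number had correlations of -0.12 to 0.11 for Cal and Model and -0.14 to -0.023 for Cal and Con. Those of animals with other numbers were -0.20 to 0.25 and -0.12 to 0.23. No pairing by number was seen, but so few pairs cannot exclude one. With the replicate number as a block 2574 and 713 genes, and 23 and 1 members, were called. Depth limited Capn12, Ankrd2 and Mybphl, each with a group at or below 9 reads in every library.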
